A study of Homo sapiens with 6 samples.

Results

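RNA-seq of HCT116 cells was examined for 6 genes of DNA mismatch repair, MSH6, MSH3, PMS2, MLH3, PMS1 and EXO1. These genes were taken by name, through the Ensembl gene ID before the dot, from the 62492 genes listed for each library, and all 6 were found and all 6 had enough counts to be tested. HCT116 is a human colorectal carcinoma line that is known to be deficient in mismatch repair. The cells received siControl or siNONO, each at 20 nM, and 3 libraries were made per siRNA, labelled as Set 1, Set 2 and Set 3 with 1 library of each siRNA in each Set. NONO, the targeted gene, codes for a DNA- and RNA-binding protein of paraspeckles, and 1 siNONO duplex was used, so loss of NONO and any other effect of that duplex cannot be told apart. The labels call both groups siRNA-treated, with the genotype given as WT for siControl and as NONO knockdown for siNONO, and the question of the comparison is how the transcriptome differs once NONO is depleted. No further mismatch repair gene was analysed as a member of this group.

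Mismatch repair removes bases that were paired wrongly during DNA replication. MutS proteins work as pairs that find the error, MSH6 in the pair that reads mispaired bases and small loops and MSH3 in the pair that reads larger loops. MutL proteins are then recruited, with PMS2 as the subunit that nicks the new strand, MLH3 as a related endonuclease subunit best known from meiosis, and PMS1 as a subunit of less defined role. EXO1, a 5′ to 3′ exonuclease, removes the stretch with the error, after which the gap is filled by DNA polymerase delta with the PCNA clamp and sealed by DNA ligase I. In colorectal tumours, loss of this repair gives microsatellite instability.

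The libraries held from 21765393 to 32659002 estimated counts each. NONO kept 18.9% of its siControl level, with 89.5, 95.5 and 100.4 CPM (estimated counts scaled to library size with edgeR's TMM factors) in siNONO Sets 1, 2 and 3 against 496, 495 and 516 in siControl. Of 7 markers of epithelial cells, 6 were detected well and VIL1 had at most 7 counts in any library, and the summed TPM of the list (RSEM's level per transcript, scaled for gene length and library size) was 2825 to 2978 in siControl and 2591 to 2930 in siNONO. Within it ELF3, an epithelial transcription factor, was lower (-0.58 on the log2 scale, adjusted p = 3.03e-07) and KRT19, a keratin, higher (0.14, adjusted p = 0.00731, both by edgeR's quasi-likelihood test), and 4 others were not called. The part of these in the changes of the repair genes was not tested. Of the markers of other cell types, PTPRC, DCN and COL1A2 had at most 2 counts in any library, whereas COL1A1 had 896 to 1257, VWF had 21 to 39 and CD14 had at most 6. The summed TPM of that list was 16.8 to 19.5 in siControl and 16.6 to 18.5 in siNONO. Neither the labels nor the methods say whether the 3 Sets came from separate cultures, so the p-values measure only the spread between these libraries, which may be technical.

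EXO1 and MSH6 fell in siNONO, PMS1 was slightly higher in a call that 9 of 17 alternatives lost, and MSH3, PMS2 and MLH3 were not called. EXO1 fell to 50.4% and MSH6 to 67.5% of siControl, each in all 3 Sets. In counts over members, 2 of the 6 genes were lower and 1 was higher in edgeR's quasi-likelihood test, with p-values adjusted after Benjamini and Hochberg for the 17000 genes tested and a threshold of 0.05. By the same rule 46.6% of all genes were called, 23.4% lower and 23.2% higher, so 3 of 6 is a share near the background. The median log2 fold change of the 6 genes was -0.17, beside -0.00479 for all genes tested.

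The promoters of the genes are shown here because some of the members moved together and others did not. They are RefSeq windows on GRCh38.p14, each from 250 bases before to 50 bases after an annotated start site, read 5′ to 3′ on the gene's strand, and all 6 genes matched to at least 1 window. The E2F motif, a site for the E2F factors that drive genes of DNA replication, was searched on both strands in the 4 spellings TTTCCCGC, TTTCGCGC, TTTGCCGC and TTTGGCGC. Of all 35116 windows, 3.31% held one of them. At least 1 window did so for EXO1 (of 2 windows), MSH6 (of 4), MSH3 (of 1) and PMS2 (of 2). The share is per window, and a gene with more windows has more chances to match, so the 2 are not like measures. The windows of EXO1, MSH6 and PMS2 with a match follow, with the matches in capitals, first EXO1 at chr1:241847954-241848253 (plus strand), then MSH6 at chr2:47782895-47783194 (plus strand) and PMS2 at chr7:6009057-6009356 (minus strand).
EXO1: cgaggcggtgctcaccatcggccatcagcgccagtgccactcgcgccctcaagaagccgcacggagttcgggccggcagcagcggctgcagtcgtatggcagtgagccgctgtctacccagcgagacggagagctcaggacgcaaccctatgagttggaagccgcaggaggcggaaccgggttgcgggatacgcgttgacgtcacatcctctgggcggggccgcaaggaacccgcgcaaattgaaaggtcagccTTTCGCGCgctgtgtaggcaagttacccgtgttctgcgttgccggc
MSH6: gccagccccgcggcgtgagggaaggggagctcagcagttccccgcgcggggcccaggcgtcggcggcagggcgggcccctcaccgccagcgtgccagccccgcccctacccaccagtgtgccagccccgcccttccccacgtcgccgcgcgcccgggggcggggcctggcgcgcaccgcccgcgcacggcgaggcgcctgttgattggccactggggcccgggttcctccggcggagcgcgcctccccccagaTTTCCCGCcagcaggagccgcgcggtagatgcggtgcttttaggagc
PMS2: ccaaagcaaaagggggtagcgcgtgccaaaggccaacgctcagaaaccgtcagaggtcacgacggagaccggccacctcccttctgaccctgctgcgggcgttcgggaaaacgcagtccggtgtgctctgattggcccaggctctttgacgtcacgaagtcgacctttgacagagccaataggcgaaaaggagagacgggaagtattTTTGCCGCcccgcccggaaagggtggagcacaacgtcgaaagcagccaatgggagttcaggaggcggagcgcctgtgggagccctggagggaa

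The match in EXO1 began 5 bases and that in MSH6 4 bases after the start site, counting the first transcribed base as 1. The match in PMS2 began 43 bases before the start site in the window shown. A second PMS2 window held the same site 100 bases before its own start site. The second window of EXO1 and the other 3 of MSH6 held none. The single window of MSH3, not shown, held 2 overlapping matches, which began 107 and 103 bases before its start site. The single windows of MLH3 and PMS1 had no match. The set with a match thus joins EXO1 and MSH6, which fell, to MSH3 and PMS2, which were not called. Other motifs were searched in the same way. The CCAAT box (CCAAT) was found in windows of MSH6, PMS2 and PMS1 and in 34.6% of all windows, and the cAMP response element (TGACGTCA) in windows of EXO1 and PMS2 and in 1.85% of all windows. The cell cycle homology region (TTTGAA), at 15.2% of all windows, and the core of the interferon-stimulated response element (AAACTGAAA), at 0.703%, matched in no window of the 6 genes. A match describes letters in the reference and is not a measure of binding.

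Of the MutS genes MSH6 and MSH3, MSH6 was the more abundant, and it fell in siNONO. MSH6 (ENSG00000116062.17_8), on the plus strand of chromosome 2 of GRCh37 from 47922669 to 48037202, had 104, 109 and 96.9 CPM in siControl Sets 1, 2 and 3 and 69.6, 71.1 and 69.0 CPM in siNONO. Every siNONO library lay below every siControl library, and the siNONO libraries lay close to each other. The mean fell from 104 ± 6.25 CPM to 69.9 ± 1.11 CPM (SD, n = 3 per group), a log2 fold change of -0.57 (standard error 0.0380, adjusted p = 1.25e-07 by edgeR's quasi-likelihood test), with a 95% interval from -0.65 to -0.48. Per Set the log2 fold change was -0.58, -0.62 and -0.49. On the scale of TPM, MSH6 was at 38.2, 37.9 and 34.6 in siControl and at 24.0, 23.7 and 22.9 in siNONO, again without overlap. The deposited counts of MSH6 and of MSH3 were fractional in all 6 libraries (more than 0.001 away from a whole number), as occurs where RSEM divides reads between genes, so both values may hold reads of other genes.

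MSH3 (ENSG00000113318.11_5), on the plus strand of chromosome 5 of GRCh37 from 79950471 to 80172634, was the lowest of the 6 genes. Its estimated counts were 126, 142 and 104 in siControl and 117, 76.2 and 109 in siNONO. The count of siNONO Set 2 has an exact Poisson 95% interval from 59.9 to 95.1, and such an interval reflects counting error alone. Scaled to library size, MSH3 was at 3.82, 5.19 and 4.74 CPM in siControl and at 4.09, 2.73 and 3.90 CPM in siNONO, and the groups overlapped. MSH3 changed by -0.36 on the log2 scale (standard error 0.181, adjusted p = 0.130 by edgeR's quasi-likelihood test), and its 95% interval from -0.75 to 0.04 includes a fall as large as that of MSH6. The Sets differed widely, with 0.10 in Set 1, -0.92 in Set 2 and -0.28 in Set 3. Leaving out either library of Set 1 gave a called fall, of -0.59 without siControl (adjusted p = 0.0209) and -0.60 without siNONO (adjusted p = 0.0258, both by edgeR's quasi-likelihood test). Leaving out either library of Set 2 brought the value to -0.07 without siControl and -0.08 without siNONO, so no direction of MSH3 can be given. Because the fit is blocked on Set, a library left without its partner does not inform the difference. The fits without either library of a Set are therefore nearly the same check.

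The TPM ratio of MSH6 to MSH3, which sets the levels of the 2 genes against each other per length, was 17.8, 17.0 and 20.3 in siControl and 10.5, 20.8 and 12.7 in siNONO. The ratio was lower in siNONO Sets 1 and 3 and not in Set 2. The log2 ratio was 4.19 ± 0.135 in siControl and 3.82 ± 0.506 in siNONO (SD, n = 3), a difference smaller than the spread within siNONO. A two-sided exact permutation test gave p = 0.4, where 3 against 3 libraries cannot go below 0.1. This test and the other permutation tests here treat the libraries as unpaired and take no account of the Sets.

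**Figure D1:**
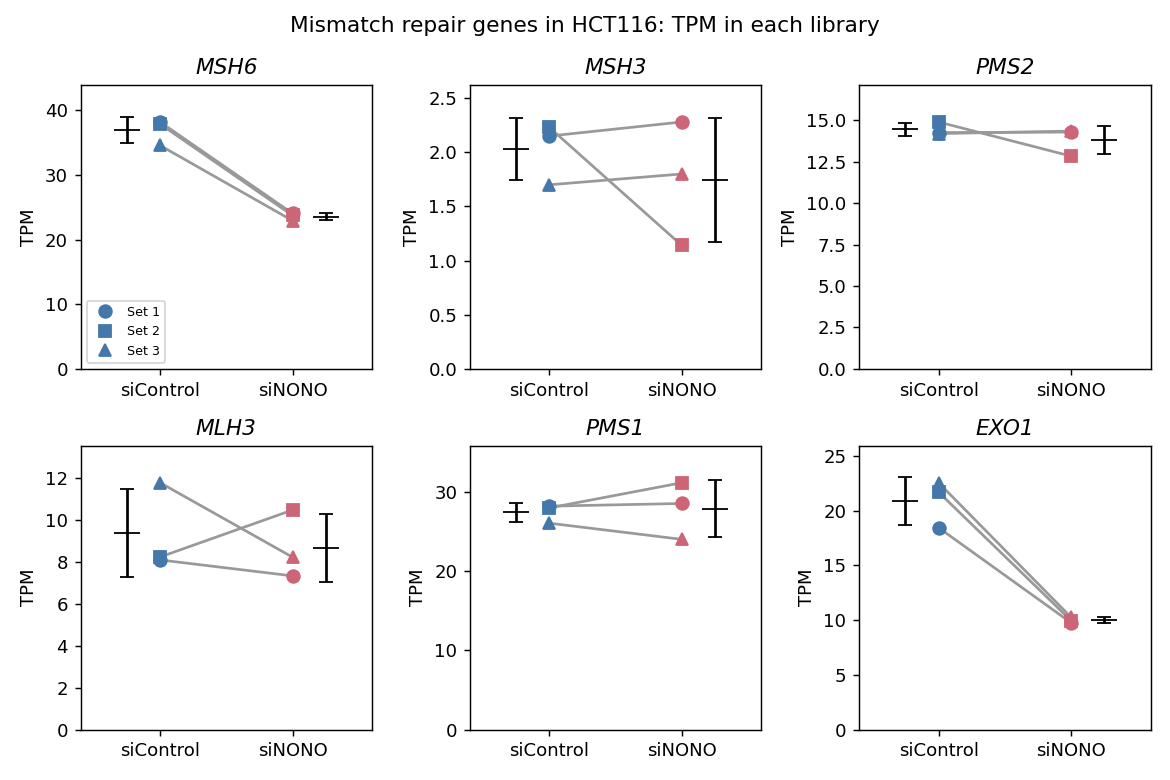
TPM of the 6 mismatch repair genes (vertical axes, each from 0) in siControl and siNONO, with a symbol per Set, grey lines joining the libraries of a Set, and bars beside them for the mean and SD of 3 libraries. MSH6 and EXO1 fell in every Set, to 23.6 and 10.0 TPM on average, whereas the lines of MSH3, PMS2, MLH3 and PMS1 run in different directions.

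The MutL genes stayed near their siControl levels. PMS2 (ENSG00000122512.16_6), on the minus strand of chromosome 7 of GRCh37 from 6010556 to 6048761, had 34.9, 38.4 and 37.7 CPM in siControl and 37.7, 36.9 and 37.3 CPM in siNONO. The siNONO libraries all lay within the range of the siControl libraries. The log2 fold change of PMS2 was 0.02 (standard error 0.0510, adjusted p = 0.836 by edgeR's quasi-likelihood test), with a 95% interval from -0.10 to 0.13.

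PMS2 has many near-identical pseudogene copies on chromosome 7, and its counts too were fractional in all 6 libraries. For PMS2CL, the copy with the most reads, siControl gave 508, 396 and 271 counts and siNONO gave 424, 354 and 339. PMS2P1 followed with 91 to 168 counts per library, PMS2P3 with 63 to 123, PMS2P6 with 4 to 45, PMS2P4 with 18 to 35, PMS2P10 with 15 to 32 and PMS2P7 with 5 to 15. PMS2P2 and PMS2P5 had at most 11 counts in any library. Of 12 copies listed, 7 had enough counts to be tested, and none of the 7 was called in either direction. With PMS2 and all its copies summed into 1 row, the log2 fold change was 0.01 (adjusted p = 0.855 by edgeR's quasi-likelihood test). That row measures PMS2 and its copies together, so it cannot show whether the value of PMS2 alone depended on the division of reads.

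MLH3 (ENSG00000119684.15_5), on the minus strand of chromosome 14 of GRCh37 from 75480472 to 75518235, had 22.1, 22.3 and 19.9 CPM in siControl and 21.8, 23.7 and 21.0 CPM in siNONO. The groups overlapped, and the lowest library of each was that of Set 3. MLH3 differed by 0.05 on the log2 scale (standard error 0.0571, adjusted p = 0.536 by edgeR's quasi-likelihood test), with a 95% interval from -0.08 to 0.17. Its counts, like those of PMS1 and EXO1, were whole in every library.

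PMS1 (ENSG00000064933.18_5), on the plus strand of chromosome 2 of GRCh37 from 190648811 to 190742355, was the member called higher, by a small amount. It had 51.3, 49.4 and 45.5 CPM in siControl and 57.4, 59.0 and 47.0 CPM in siNONO, so Sets 1 and 2 of siNONO lay above all of siControl and Set 3 did not. The difference on the log2 scale was 0.16 (standard error 0.0479, adjusted p = 0.0157 by edgeR's quasi-likelihood test), and it was 0.16, 0.26 and 0.05 in Sets 1, 2 and 3. This call was lost without the Set as a block (0.16, adjusted p = 0.167), with DESeq2 (adjusted p = 0.103) and on log2(TPM + 1) with limma (0.02, adjusted p = 0.865). In that limma fit the median log2 fold change of all genes tested was -0.07, beside -0.00479 in the main fit. The call was also lost without siControl Set 1 (adjusted p = 0.0546), siControl Set 2 (0.133), siNONO Set 1 (0.0736) or siNONO Set 2 (0.176), all by edgeR's quasi-likelihood test. As for MSH3, the fits without either library of a Set are nearly the same check.

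Set against each other per length, PMS2 was the more abundant of PMS2 and MLH3 in every library, with TPM ratios of 1.76, 1.81 and 1.21 in siControl and 1.95, 1.23 and 1.74 in siNONO. PMS2 stood below PMS1 in every library, at 0.505, 0.532 and 0.544 of its TPM in siControl and 0.5, 0.411 and 0.597 in siNONO. Neither ratio differed between the groups by more than the spread of the libraries (two-sided exact permutation tests on the log2 ratios, p = 0.800 and p = 0.700).

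EXO1, the exonuclease, showed the largest change of the 6 genes. EXO1 (ENSG00000174371.17_5), on the plus strand of chromosome 1 of GRCh37 from 242011269 to 242058450, had 30.9, 37.6 and 33.2 CPM in siControl and 16.6, 17.6 and 17.0 CPM in siNONO. Every siNONO library lay below every siControl library. The mean fell from 33.9 ± 3.43 CPM to 17.0 ± 0.511 CPM (SD, n = 3 per group), a log2 fold change of -0.99 (standard error 0.0587, adjusted p = 4.73e-08 by edgeR's quasi-likelihood test) with a 95% interval from -1.12 to -0.86. In Sets 1, 2 and 3 the log2 fold change was -0.90, -1.10 and -0.97. Among the 17000 genes tested, 1.58% had a log2 fold change as low as that of EXO1 or lower, and 7.16% one as low as that of MSH6.

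**Figure D2:**
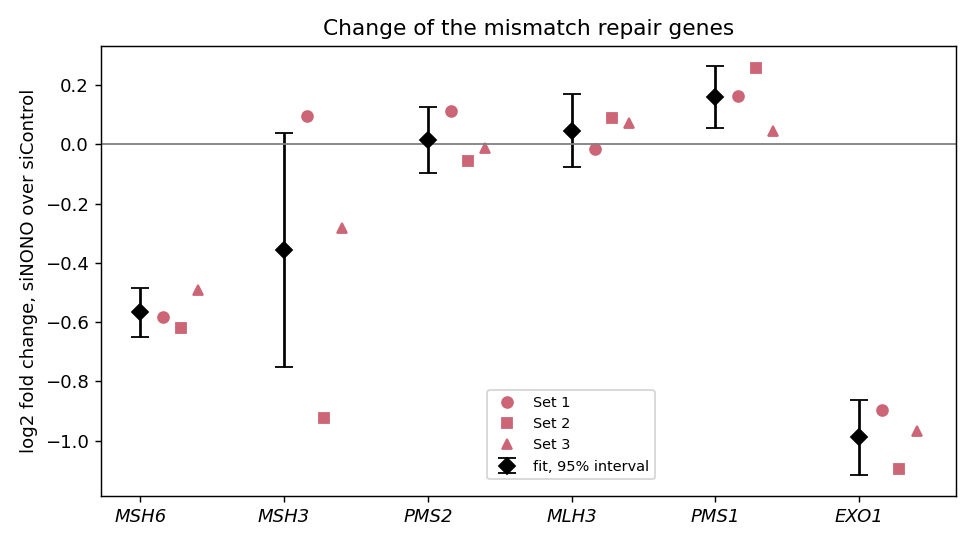
Log2 fold change of siNONO over siControl for the 6 genes (vertical axis), with black diamonds and bars for the fitted value and its 95% interval and coloured symbols for each Set. The intervals of EXO1 (-1.12 to -0.86) and MSH6 (-0.65 to -0.48) lie below 0, and that of MSH3 is the widest.

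EXO1 is transcribed mainly in S phase and belongs to a widely used list of S-phase genes, so the rest of that list was placed beside it. Of 41 genes, without mismatch repair members, 39 were lower in siNONO, none higher, and 2 (CDCA7 at -0.08 and TIPIN at 0.07) passed in neither direction, beside 23.4% lower and 23.2% higher among all genes tested. The 41 genes had a median log2 fold change of -0.47, which was -0.47, -0.47 and -0.45 in Sets 1, 2 and 3, beside -0.00479 for all genes tested. The summed TPM of the 41 genes was 2223 to 2356 in siControl and 1525 to 1621 in siNONO, without overlap. EXO1 lay at the low end of this list, since 1 of the 41 genes (CCNE2, a cyclin of S-phase entry, at -1.09) had a lower log2 fold change, and 16 had a lower one than MSH6. In bulk libraries, fewer cells in S phase and less RNA per cell cannot be told apart, and the part of the S-phase list in the fall of EXO1 and MSH6 was not tested.

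The order of the 6 genes by TPM changed between the groups. In siControl the order was MSH6 (36.9 ± 2.01 TPM), PMS1 (27.4 ± 1.18), EXO1 (20.9 ± 2.17), PMS2 (14.4 ± 0.388), MLH3 (9.36 ± 2.09) and MSH3 (2.03 ± 0.286; SD, n = 3 for each), and no neighbours in this order overlapped in their libraries. In siNONO the order was PMS1 (27.9 ± 3.62 TPM), MSH6 (23.6 ± 0.573), PMS2 (13.8 ± 0.855), EXO1 (10.0 ± 0.252), MLH3 (8.67 ± 1.62) and MSH3 (1.74 ± 0.572; SD, n = 3 for each). There EXO1 and MLH3 did not differ beyond their spread, and PMS1 and MSH6 met at 24.0 TPM, in PMS1 of Set 3 and MSH6 of Set 1.

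Both changes of place were seen within every Set. The TPM ratio of MSH6 to PMS1 was 1.35, 1.35 and 1.33 in siControl and 0.841, 0.761 and 0.954 in siNONO. That of EXO1 to PMS2 was 1.29, 1.46 and 1.59 in siControl and 0.684, 0.777 and 0.716 in siNONO. In both ratios all siNONO libraries lay below all siControl libraries. Two-sided exact permutation tests on the log2 ratios gave p = 0.1 each, and 0.1 after adjustment over these 2 pairs. This is the smallest p these tests can give, and they take no account of the Sets. The pairs were picked after their values were seen, because their order changed, so these tests add no support to that change.

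The genes that fill and seal the gap after excision were lower in siNONO as a rule. Of 15 genes of this step, 14 had enough counts, of which 10 were lower, 2 were higher and 2 were not called, beside 23.4% lower and 23.2% higher among all genes. Their median log2 fold change was -0.27. LIG1, the ligase that seals the nick, fell by 0.50 on the log2 scale (adjusted p = 9.33e-07 by edgeR's quasi-likelihood test), from 63.5 ± 2.92 to 45.0 ± 3.09 CPM (SD, n = 3). PCNA, the sliding clamp, fell by 0.32 (adjusted p = 0.000105), from 152 ± 14.8 to 122 ± 1.63 CPM.

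All 5 subunits of the clamp loader replication factor C were lower, RFC4 by a log2 fold change of -0.39, RFC3 by -0.34, RFC5 by -0.25, RFC1 by -0.23 and RFC2 by -0.21. RFC2 was the weakest of them (adjusted p = 0.0437 by edgeR's quasi-likelihood test), with 0.07 in Set 3. Replication protein A coats the single strand that EXO1 leaves. Its subunits RPA3 (-0.51) and RPA2 (-0.30) fell, RPA1 was at 0.02 and not called, and RPA4 had at most 7 counts in any library and was not tested.

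The subunits of DNA polymerase delta parted. POLD3 fell (-0.51), POLD2 rose (0.34, adjusted p = 2.28e-06 by edgeR's quasi-likelihood test) and POLD4 rose with a wide spread over Sets 1, 2 and 3 (-0.09, 0.74 and 0.44; fit 0.36, adjusted p = 0.0328). POLD1, the catalytic subunit, was at -0.02 with a 95% interval from -0.14 to 0.11. POLD2 had 118, 123 and 133 CPM in siControl and 150, 159 and 165 CPM in siNONO, with no overlap. Counts of POLD4 and RFC5 were fractional in all 6 libraries, as for MSH6 and MSH3, and those of POLD1 in 2. Of the 41 S-phase genes above, 5 are also in this list or the list of glycosylases.

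**Figure D3:**
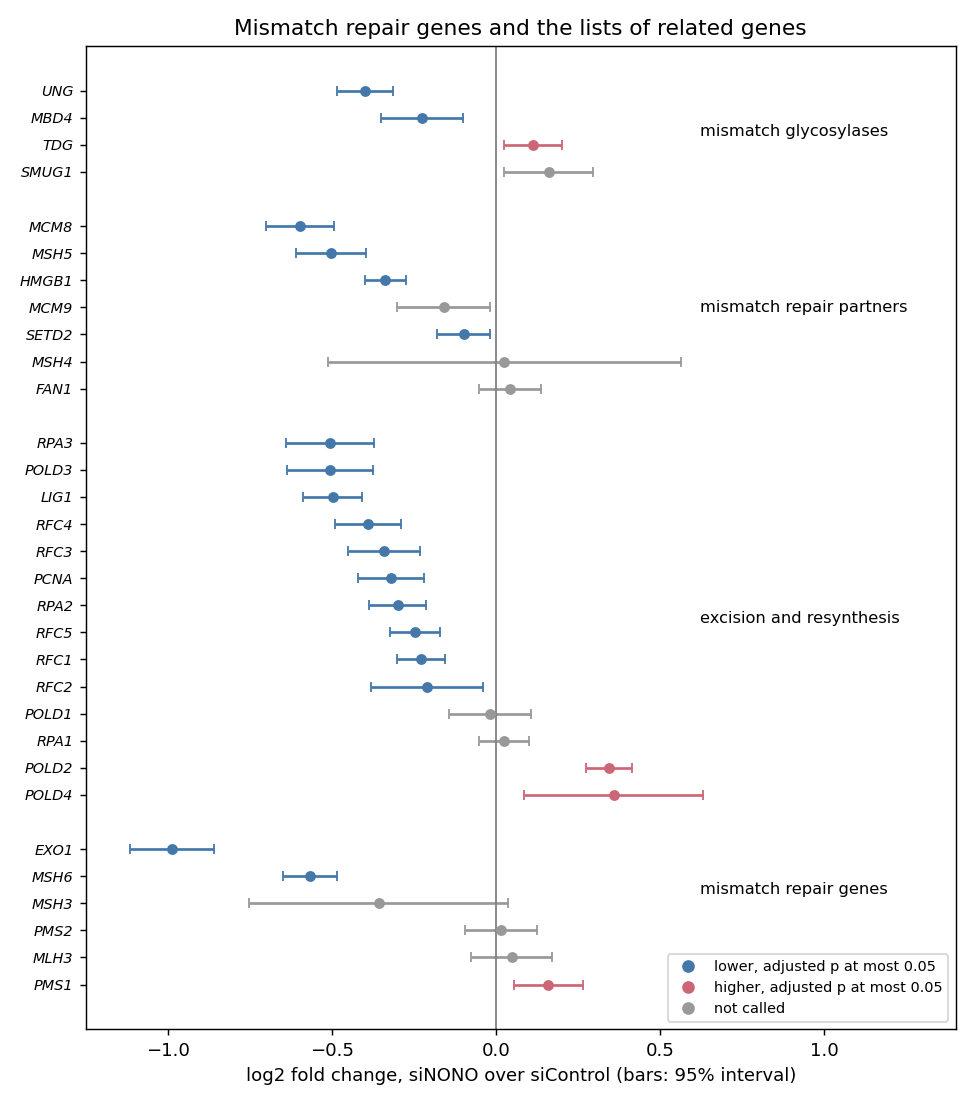
Log2 fold change of siNONO over siControl (horizontal axis, bars for the 95% interval) for the 6 mismatch repair genes and the genes tested in 3 lists of related genes, coloured by call (adjusted p threshold of 0.05). In the excision and resynthesis list, 10 of 14 genes lie below 0 and were called, and POLD2 and POLD4 were called above 0.

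Genes that work beside mismatch repair gave 4 lower, 0 higher and 3 not called among 7. Among all genes 46.6% were called, 23.4% lower and 23.2% higher. The share called in either direction is thus near the background, whereas all 4 calls were lower. The median log2 fold change of the 7 genes was -0.16. MCM8, a helicase subunit, fell most (-0.60, adjusted p = 5.52e-07 by edgeR's quasi-likelihood test), and its partner MCM9 was at -0.16 (adjusted p = 0.0634). MSH5, a MutS protein of meiosis, fell from 38.0 ± 2.28 to 26.8 ± 1.84 CPM (SD, n = 3), with a log2 fold change of -0.50. Its partner MSH4 had 32 to 65 counts per library and a 95% interval from -0.51 to 0.56. HMGB1, a DNA-bending protein, fell by 0.34, and SETD2, the methyltransferase of the histone mark that MSH6 binds, fell by 0.10 (adjusted p = 0.0455). FAN1, a nuclease that binds MutL proteins, was at 0.04 and not called. Counts of MSH5, HMGB1, FAN1 and MCM9 were fractional in all 6 libraries, as for MSH6 and MSH3.

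Among 4 glycosylases that act on mispaired or deaminated bases, UNG (-0.40) and MBD4 (-0.23) fell, TDG was higher (0.11, adjusted p = 0.0394) and SMUG1 was at 0.16 (adjusted p = 0.0513, by edgeR's quasi-likelihood test). The number of calls depended on the setting. No glycosylase was called higher with DESeq2, with limma, with library size alone, without the replicate block, or without siControl Set 2 or 3 or siNONO Set 2 or 3. The number called ran from 1 (DESeq2) to 4 over the alternatives, beside 46.6% among all genes.

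Several of the mismatch repair genes start beside or overlap a gene of the opposite strand. The annotation used here was GENCODE version 44 on GRCh37. It gives 9 genes that overlap MSH6, PMS2, MLH3 or PMS1 on either strand or start within 1000 bases of their starts on the other. EXO1 has none. Of these 9 genes, 6 had too few counts for the test, the small RNA and pseudogene entries NME2P2, RBISP5, RNU6-688P, RPL36AP15, Y_RNA and RNU6-689P. NME2P2, RNU6-688P and Y_RNA lie on the same strand as the member they overlap. The library kit keeps the strand, but whether the counting used it is not given in the sources used here, so in the overlaps reads of the 2 genes may not be told apart.

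AIMP2, a subunit of the aminoacyl-tRNA synthetase complex, starts 125 bases from the start of PMS2 and does not overlap it. Counts of AIMP2, like those of PMS2, were fractional in all 6 libraries, so both may hold reads of other genes. AIMP2 rose from 25.6, 24.7 and 26.2 CPM to 33.6, 32.5 and 35.1 CPM, a log2 fold change of 0.40 (adjusted p = 2.90e-05 by edgeR's quasi-likelihood test), beside 0.02 for PMS2. The ratio of PMS2 to AIMP2 counts was 1.36, 1.56 and 1.44 in siControl and 1.12, 1.13 and 1.07 in siNONO. All siNONO libraries lay below all siControl libraries (two-sided exact permutation test, p = 0.1, and 0.15 after adjustment over the 3 pairs of neighbours).

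FBXO11, an F-box protein gene, overlaps MSH6 within the annotated spans and fell by 0.16 on the log2 scale (adjusted p = 0.00229 by edgeR's quasi-likelihood test), less than MSH6. Its ratio, as MSH6 counts over FBXO11 counts, was 1.18, 1.23 and 1.24 in siControl and 0.877, 0.913 and 0.974 in siNONO (exact permutation test, p = 0.1, adjusted 0.15). Counts of FBXO11, like those of MSH6, were fractional in every library. ORMDL1, a regulator of sphingolipid synthesis, starts 279 bases from PMS1 and overlaps it. Counts of ORMDL1 and PMS1 were whole in every library, so they show no sign of reads divided between these 2 genes. ORMDL1 was at 0.05 (adjusted p = 0.429 by edgeR's quasi-likelihood test), and the ratio of PMS1 to ORMDL1 counts did not separate the groups (exact permutation test, p = 0.2).

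**Figure D4:**
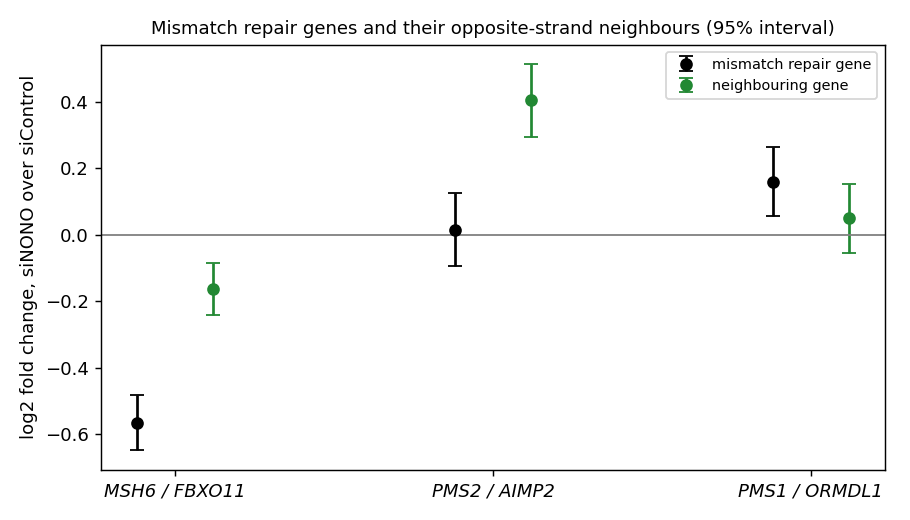
Log2 fold change of siNONO over siControl with its 95% interval for 3 mismatch repair genes (black) and the opposite-strand gene that overlaps each or starts beside it (green). AIMP2 (0.40) lies above PMS2 (0.02) and MSH6 (-0.57) below FBXO11 (-0.16), whereas the intervals of PMS1 and ORMDL1 overlap.

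The deposited tables also give a length for each gene in each library, the mean length of its transcripts weighted by the shares RSEM assigned to them. This readout moves with the mix of isoforms and enters TPM but not the counts. The length was steady for MSH6, from 4091 to 4200 bases over the 6 libraries, and it ranged from 3664 to 3976 bases for PMS2, from 2641 to 2901 for PMS1 and from 2289 to 2599 for EXO1. MLH3 and MSH3 spread far more, with a longest value of 1.61 and 1.59 times the shortest. No gene differed in length between siNONO and siControl beyond the spread of the libraries, with two-sided exact permutation p from 0.400 to 0.900 over the 6 genes.

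For MLH3 the length changed the order of the libraries. The length was 4090, 3949 and 2605 bases in siControl and 4196, 3145 and 3591 bases in siNONO. In siControl Set 3, the library with the shortest length, MLH3 had the lowest CPM of the 6 libraries, 19.9, and the highest TPM, 11.8, against 7.33 to 10.5 TPM in the other libraries. For MSH3 the length was 2741, 3423 and 4160 bases in siControl and 2619, 3312 and 3082 bases in siNONO. In TPM, MSH3 was at 2.15, 2.23 and 1.70 in siControl and at 2.28, 1.14 and 1.80 in siNONO, where Sets 1 and 3 rose and Set 2 fell. With these lengths as an offset in the edgeR fit, MSH3 was at -0.17 in place of -0.36 (adjusted p = 0.608), and EXO1 (-0.96) and MSH6 (-0.55) were still called.

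**Figure D5:**
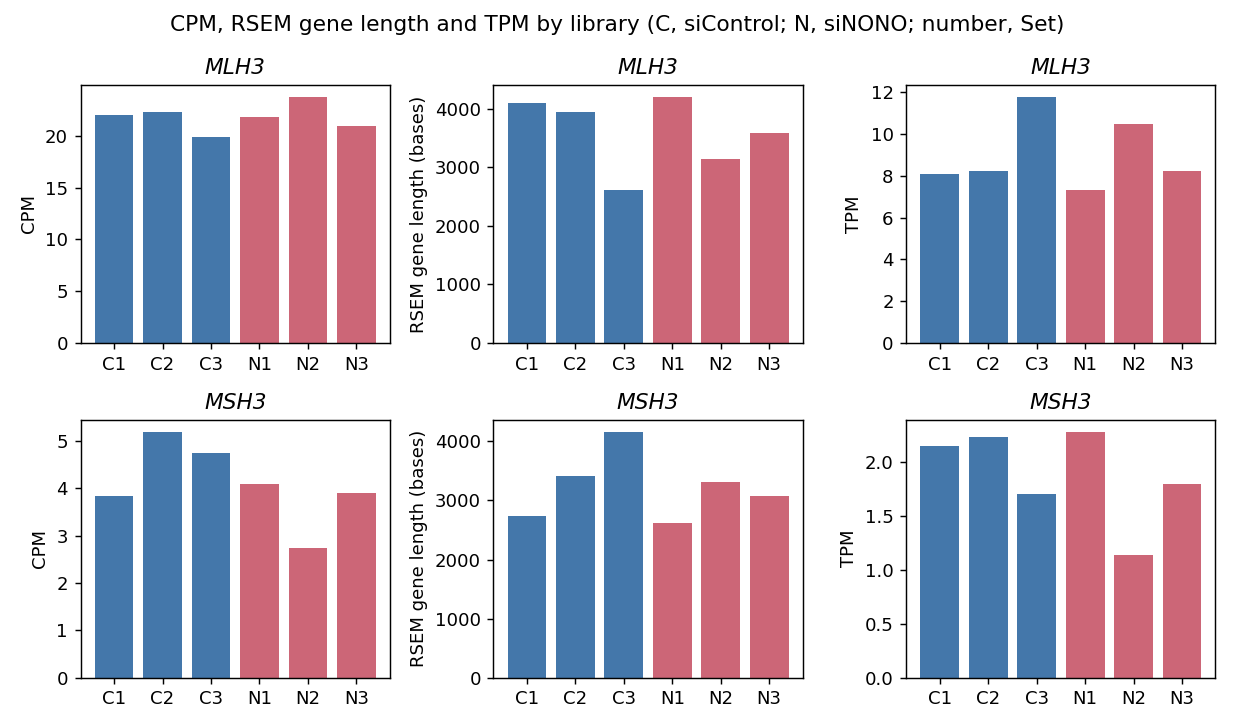
CPM, RSEM gene length in bases and TPM of MLH3 (upper row) and MSH3 (lower row) in each library, as bars from 0, with siControl (C) in blue, siNONO (N) in red and the Set as the number. MLH3 in siControl Set 3 has the shortest length, 2605 bases, the lowest CPM and the highest TPM.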

How the data were processed

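Polyadenylated RNA of 6 HCT116 libraries was sequenced from a stranded kit. Per the labels and the study's methods, the authors used sickle for trimming, STAR for alignment to GENCODE transcripts on GRCh37 and RSEM (version 1.3.1) for quantification. They deposited estimated counts per gene, which are not normalized, TPM values, in which RSEM accounts for length and depth, and gene lengths.

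Estimated counts were rounded and tested with edgeR (version 4.0.16) by quasi-likelihood as in its earlier releases, after filterByExpr and TMM, blocked on Set, and p-values were adjusted after Benjamini and Hochberg for 17000 genes. Total counts ran from 21765393 to 32659002 per library. Symbols matched 99.5% of gene IDs. On simulated siNONO against siControl counts for 16777 genes, 71.7% of genes changed by 0.5 and 92.8% of those changed by 1 (log2) were recovered, and 10 unchanged genes were called. The simulation gave all genes the same dispersion, had no Set effect and changed 99 and 97 genes at these sizes. Its shares are therefore not the power or error rate for the real libraries. Set numbers, given in the sample titles, were taken as the batch of the study's methods. Deviations from the group mean correlated between same-numbered libraries at 0.427, 0.253 and 0.504 across 10840 genes. Across Sets 1 and 2 the correlations were 0.146 and 0.16. Between Set 3 and another Set they ran from -0.437 to -0.259, so Set 3 stood apart more than Sets 1 and 2 did from each other. Replicate pairs differed by more than sampling noise, with chi-square per degree of freedom from 2.71 to 9.00.

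Genes were named by a rule: the 6 members, NONO, every gene of 3 related lists, overlapping genes and those starting within 1000 bases on the opposite strand, PMS2 copies with at least 10 counts, and the 2 genes nearest to each member in profile. CCNE2, CDCA7, TIPIN and the markers are outside it. Members and lists were chosen with earlier results of these data known, and motifs and the length offset after values had been seen. Alternatives were other scalings, filters, dispersions and tools (limma version 3.58.1, DESeq2 version 1.42.0), no block, and each library left out. PECAM1, a marker, was not matched. Neighbours of MSH3 are not reported here.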

Additional observations from a re-analysis of the deposited data

How the results depend on the processing

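EXO1 and MSH6 kept their direction and their call under all 17 alternatives each, from -1.05 to -0.92 for EXO1 and from -0.64 to -0.53 for MSH6 on the log2 scale. PMS2 and MLH3 were called under none. Among the alternatives, the fits without either library of a Set are nearly the same check. The higher level of PMS1 was no longer called without the replicate block (0.16), with DESeq2 (0.16), on log2(TPM + 1) or log2(TPM + 0.1) with limma (0.0179 and 0.0183) and with the gene length offset (0.12), and it ran from 0.11 to 0.21 when each library was left out. MSH3 ran from -0.60 to -0.0749 when each library was left out. The cause of these differences was not tested.

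The number of changed genes was 7924, and it was 5227 with DESeq2 and 5257 and 5250 with limma at a pseudocount of 1 and 0.1, of which 31.3% and 31.2% were higher, against 49.7%. In these limma fits the median log2 fold change of all genes tested was -0.07 and -0.09, against -0.00479. There were 6164 calls without the replicate block. The block changed the call of no other member. Of the glycosylases, DESeq2 called 1. Over the alternatives, 10 to 12 resynthesis genes, 3 to 5 partner genes and 37 to 39 S-phase genes were called, against 12, 4 and 39.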

Other observations

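For each member, the 2 genes with the most similar profile over the 6 libraries were taken from 13339 genes whose log2 CPM averaged 1 or more, by the root mean square difference of log2 CPM centred on each gene's mean. For EXO1 these were STIL, at a difference of 0.0439 and a log2 fold change of -0.94, and CCNE2, at 0.0531 and -1.09. For MSH6 they were PPP6C (0.0153) and PRR3 (0.0248), with log2 fold changes of -0.54 and -0.59. The nearest genes to PMS1 were C2orf49 (0.0202) and KAT2B (0.0288), and those to MLH3 were ZC3H13 (0.0240) and PPID (0.0261). CHMP4B lay at 0.0169 from PMS2, behind ENSG00000277203 at 0.0158. MSH3 had no gene as near, with TCEA3 at 0.0842 and ENSG00000263826 at 0.0965. Over 6 libraries and 13339 genes a near profile describes these libraries, and nothing is drawn from it.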
